A study of Mus musculus with 12 samples.

Results

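The genes described here encode the proteins of the cytoplasmic ribosome, and the measurement is how open their promoters were in mouse liver chromatin. They were picked by symbol from the deposited promoter table: names beginning with Rpl, Rps or Rplp and a number. Symbols marked -ps, for pseudogenes, and the S6 kinases were left out. This gave 88 of the 25124 promoter symbols, each represented by its promoter with the highest mean level. They comprise 30 proteins of the small (40S) subunit, 43 of the large (60S) subunit, the 3 proteins of the P-stalk, 11 paralogs or like-genes, and Rps19bp1, which encodes a protein that binds Rps19 and is not itself part of the ribosome. Rpsa, Fau and Rack1, which also encode ribosomal components, lie outside that naming pattern.

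Chromatin was profiled by ATAC-seq, in which the transposase Tn5 cuts DNA that is not packed away, in livers of wild-type C57BL/6N male mice aged 19 to 20 weeks. The PCN group received 100 mg/kg pregnenolone 16α-carbonitrile, which activates the nuclear receptor PXR (pregnane X receptor) of rodents and so switches on genes of drug metabolism. The atorvastatin group received 10 mg/kg of this statin, a cholesterol-lowering inhibitor of HMG-CoA reductase, and the control group received distilled water, the vehicle. All 3 groups were dosed by gavage on 4 days and fasted for 12 h, and each is represented by 4 libraries. Groups held 9 to 10 mice, and the labels do not give which mice went into which library; the spread behind each p-value is that between libraries, which may be technical in part. Whole liver was used, so fewer cells of a type and less open chromatin per cell cannot be told apart.

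Ribosomal proteins are needed in matched amounts, since each ribosome is built from a fixed set of them, and in growing or protein-exporting tissues such as liver these genes are among the most strongly transcribed. Vertebrate ribosomal protein promoters are known for lacking a TATA box in most cases, for sites of factors of the Sp1 and ETS families, and for a start site that lies in a run of pyrimidines. That run becomes the 5′ TOP motif of the mRNA, through which mTOR signalling controls translation. Many of these genes also carry small nucleolar RNAs (snoRNAs), guides for rRNA modification, in their introns.

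The promoter sequences below are shown for members at the extremes of the level or of the comparisons described further on, and for the stalk gene Rplp2. They come from the RefSeq table on the mouse build GRCm38.p6 (mm10) and run 5′ to 3′ on the gene's strand, from 60 bases before the start site to 20 bases from it on. Capitals mark an unbroken run of at least 8 pyrimidines (C or T) that overlaps the last 5 bases before the start or the first 5 of the transcript. The first 4 hold such a run, and the last 3 do not.

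Rpl15 (chr14:18270967-18271046, minus strand): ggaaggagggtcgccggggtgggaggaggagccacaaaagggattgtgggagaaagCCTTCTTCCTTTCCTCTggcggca
Rpl13a (chr7:45128726-45128805, minus strand): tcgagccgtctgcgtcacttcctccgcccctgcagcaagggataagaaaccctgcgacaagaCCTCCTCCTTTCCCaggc
Rplp2 (chr7:141447591-141447670, plus strand): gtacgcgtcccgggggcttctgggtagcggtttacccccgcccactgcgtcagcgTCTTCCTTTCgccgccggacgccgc
Rpl22l1 (chr3:28805448-28805527, plus strand): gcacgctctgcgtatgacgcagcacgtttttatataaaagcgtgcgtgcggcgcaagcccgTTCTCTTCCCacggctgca
Rps19 (chr7:24884532-24884611, plus strand): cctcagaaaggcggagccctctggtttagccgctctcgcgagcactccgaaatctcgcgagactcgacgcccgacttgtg
Rplp0 (chr5:115559407-115559486, plus strand): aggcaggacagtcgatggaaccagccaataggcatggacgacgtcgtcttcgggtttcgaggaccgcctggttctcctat
Rpl39l (chr16:10170168-10170247, plus strand): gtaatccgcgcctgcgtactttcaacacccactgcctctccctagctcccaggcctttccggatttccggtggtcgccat

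The RefSeq table held a promoter of 250 bases before to 50 bases after the start for 67 of the 88 members. Each sequence is that of the first promoter listed for its gene. Pyrimidine runs of 8 or more at the start were present in 22 of these 67 (32.8%), against 9.43% of all 18397 promoters in the table. The run of Rpl15, a structural protein of the large subunit, was 17 bases long and that of Rpl13a, which also takes part in interferon-dependent translational silencing, 14 bases. The start base itself was C in 35.8% of the members and in 13.7% of all promoters. A match describes letters in a window and does not show that a factor binds there, and annotated start sites can be off by a few bases.

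Among motifs read on both strands, the ETS core CCGGAAG was held by 24 of 67 members (35.8%), against 11.8% of all promoters. The YY1-type letters AAGATGG stood in 13.4% of members and 6.47% of all promoters, and the NRF1-type letters GCGCATG in 10.4% and 4.93%. The Sp1-type GC box GGGCGG was held by 58.2% of members and by 46.1% of all promoters. The E-box CACGTG (7.46% of members, 8.14% of all) and the TATA box TATAAA (10.4% of members, 12.8% of all) were found at shares close to those of the whole table. The GC content was 57.0% in the median member and 56.3% in the median promoter, while CpG pairs stood at 0.854 and 0.568 of the number that base composition gives. Members with the ETS letters had a median level of 37.6 CPM (counts scaled to a common library size), against 28.6 CPM in the 43 members without them. Members with the Sp1-type letters had 36.2 CPM, against 26.7 CPM in the 28 without. The other motifs went with lower medians: 28.1 CPM in the 9 members with YY1-type letters, against 30.2 CPM without them, 26.7 CPM in the 7 with NRF1-type letters, against 30.9 CPM, 28.6 CPM in the 5 with the E-box, against 30.2 CPM, and 22.3 CPM in the 7 with the TATA box, against 30.2 CPM. These medians are descriptions over members that share the 12 libraries. Sequence and level were not matched by transcript, so for genes with several promoters they may come from different ones.

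snoRNA genes lay inside 29 of the 88 member genes (33.0%), 57 snoRNAs in all, against 1.86% of 20488 protein-coding genes in the annotation. Rpl4, a core protein of the large subunit, held 5, and Rpl13a and Rpl7a held 4 each; the snoRNAs of Rpl13a are Snord32a, Snord33, Snord34 and Snord35a. Hosts did not stand out in openness, with a median of 31.7 CPM against 30.5 CPM in the 47 core subunit genes without a snoRNA. A protein-coding gene on the other strand began within 1000 bases upstream at 9 of the 67 members (13.4%, against 8.29% of protein-coding genes). Among these, Rps28 and the respiratory chain gene Ndufa7 had starts 10 bases apart, and Rps27 and Rab13 had starts 67 bases apart, so that reads there cannot be credited to a single gene. Chromosome 7 held 14 members, more than any other chromosome. The share of all promoter symbols on that chromosome was not computed.

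**Figure D1:**
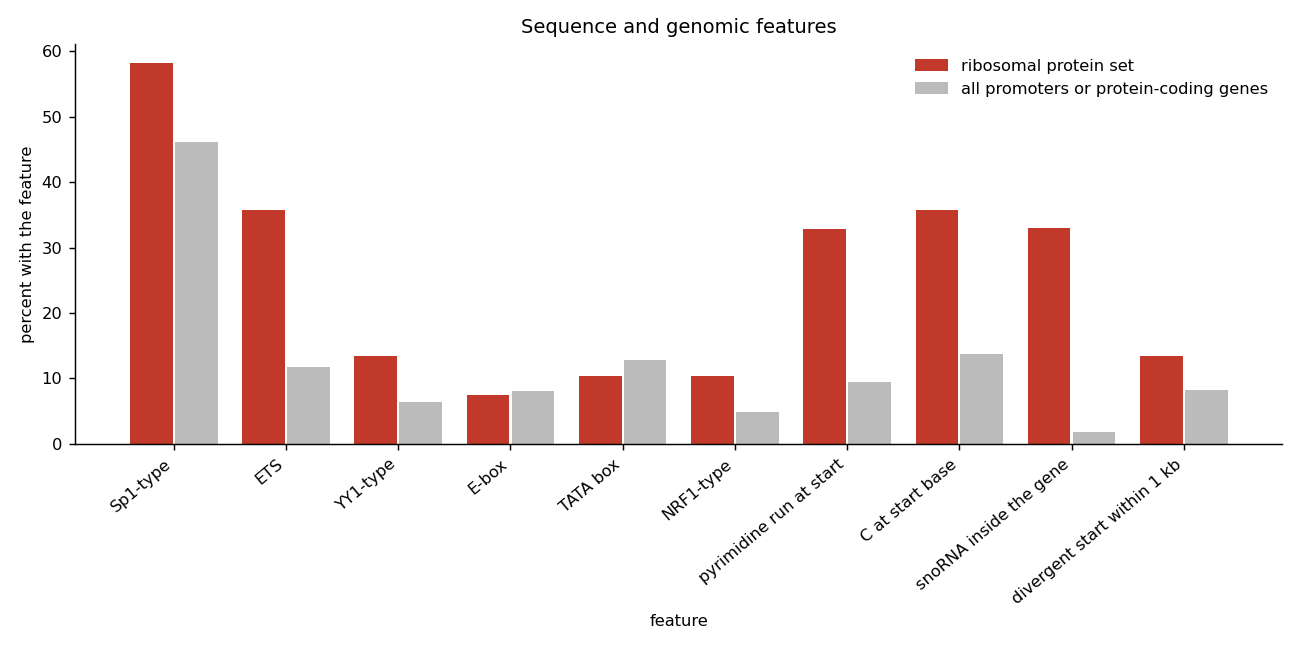
Percent of ribosomal protein set promoters (red, 67 with sequence; for snoRNAs, 88 genes) and of all promoters or protein-coding genes in the RefSeq tables (grey) that hold each feature named on the horizontal axis. The bars stand furthest apart for snoRNAs inside the gene (33.0% and 1.86%), ETS letters (35.8% and 11.8%) and pyrimidine runs (32.8% and 9.43%).

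Promoter counts summed to between 1679054 (control 4) and 15336000 (atorvastatin 2) per library. Hepatocyte marker promoters had a median level of 36.8 CPM, and those of 7 other cell types of the liver and blood had medians of 3.44 to 11.9 CPM. Promoters of olfactory receptors, genes that liver does not use, had a median of 2.88 CPM and serve as a measure of counts from closed chromatin. The mean level of the core ribosomal protein promoters over that of the olfactory promoters was 9.83, 18.9, 19.7 and 18.4 in PCN libraries 1 to 4, 8.42, 31.7, 3.97 and 21.0 in atorvastatin libraries, and 7.54, 11.1, 7.37 and 18.2 in control libraries. This contrast of open to closed promoters therefore varied within every group, and was lowest in atorvastatin 3.

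Among the 12, the libraries labelled control 3 and atorvastatin 3 deviated most. In control 3, the promoters of Rps28, Rpl23, Rpl36a and Rpl10l had 0 counts, which was seen in no other library. The SD of the members' log2 ratios to the other libraries was 1.21 in control 3, where counting error alone gives 0.183, and 0.601 in atorvastatin 3, against 0.178 to 0.456 in the other 10. These are called the libraries that stood apart.

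**Figure D2:**
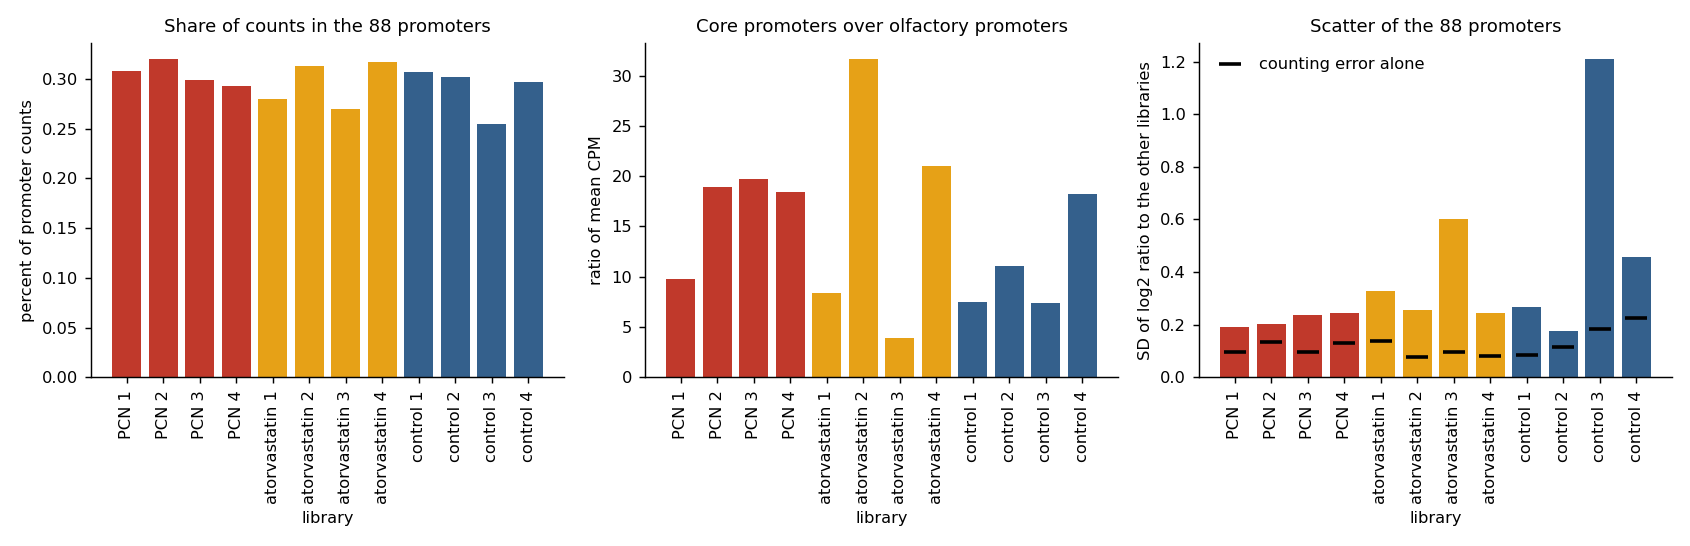
Bars show, for each library (PCN red, atorvastatin yellow, control blue), the percent of promoter counts that fell in the 88 promoters, the ratio of mean core to mean olfactory promoter level, and the SD of the 88 log2 ratios to the other libraries, with black marks at the SD that counting error alone would give. The share of counts lies between 0.254 and 0.320% in all 12 libraries, whereas the ratio runs from 3.97 to 31.7 and the SD reaches 1.21 in control 3.

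Most ribosomal protein promoters were more open than the median promoter, and a few paralogs lay near the level of closed chromatin. Levels are CPM scaled by the trimmed mean of M values (TMM) and counted over one window per promoter, whose width the files do not give, so that levels of different genes are compared per window. The median member had 30.4 CPM (interquartile range 26.3 to 41.5), against 13.4 CPM over the 24602 promoter symbols tested (5.58 to 32.7). Of the 88 members, 82 (93.2%) lay above the median of all symbols. All 88 had enough counts to be tested.

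The most open was Rps19, a small-subunit protein whose human gene is mutated in Diamond-Blackfan anaemia, at 87.0 CPM over the 12 libraries. It was followed by Rps21, a small-subunit protein, at 75.9 CPM, Rpl7, a large-subunit protein, at 74.2 CPM, and Rpl41, one of the shortest proteins known in eukaryotes, at 67.2 CPM. Rpl15, Rpl13a, Rpl27 and Rpl36, all of the large subunit, had 62.8, 61.4, 56.8 and 56.1 CPM. Rps19 ranged between 68.8 and 105 CPM in PCN libraries, between 59.7 and 105 CPM in atorvastatin libraries and between 65.2 and 128 CPM in control libraries. The SDs of Rps19 within these groups were 17.9, 22.0 and 29.7 CPM. The order is that of means, and differences between neighbours in it were not tested.

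By role, the median was 33.5 CPM in the small subunit (10.6 to 87.0), 28.6 CPM in the large subunit (14.6 to 74.2) and 35.4 CPM in the P-stalk (30.5 to 43.0), the part of the ribosome that recruits elongation factors. Genes outside the naming pattern fell within the same range, with 28.6 CPM at Rpsa, 41.7 CPM at Fau and 29.5 CPM at Rack1. The 13 other 5′ TOP mRNA genes listed had a median of 43.6 CPM (20.1 to 79.9), with the growth-related Tpt1 near the top at 78.4 CPM. The 8 elongation factor genes had a median of 54.0 CPM (7.27 to 75.4), with Eef1a1 and Eef2 at 73.4 and 67.3 CPM.

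**Figure D3:**
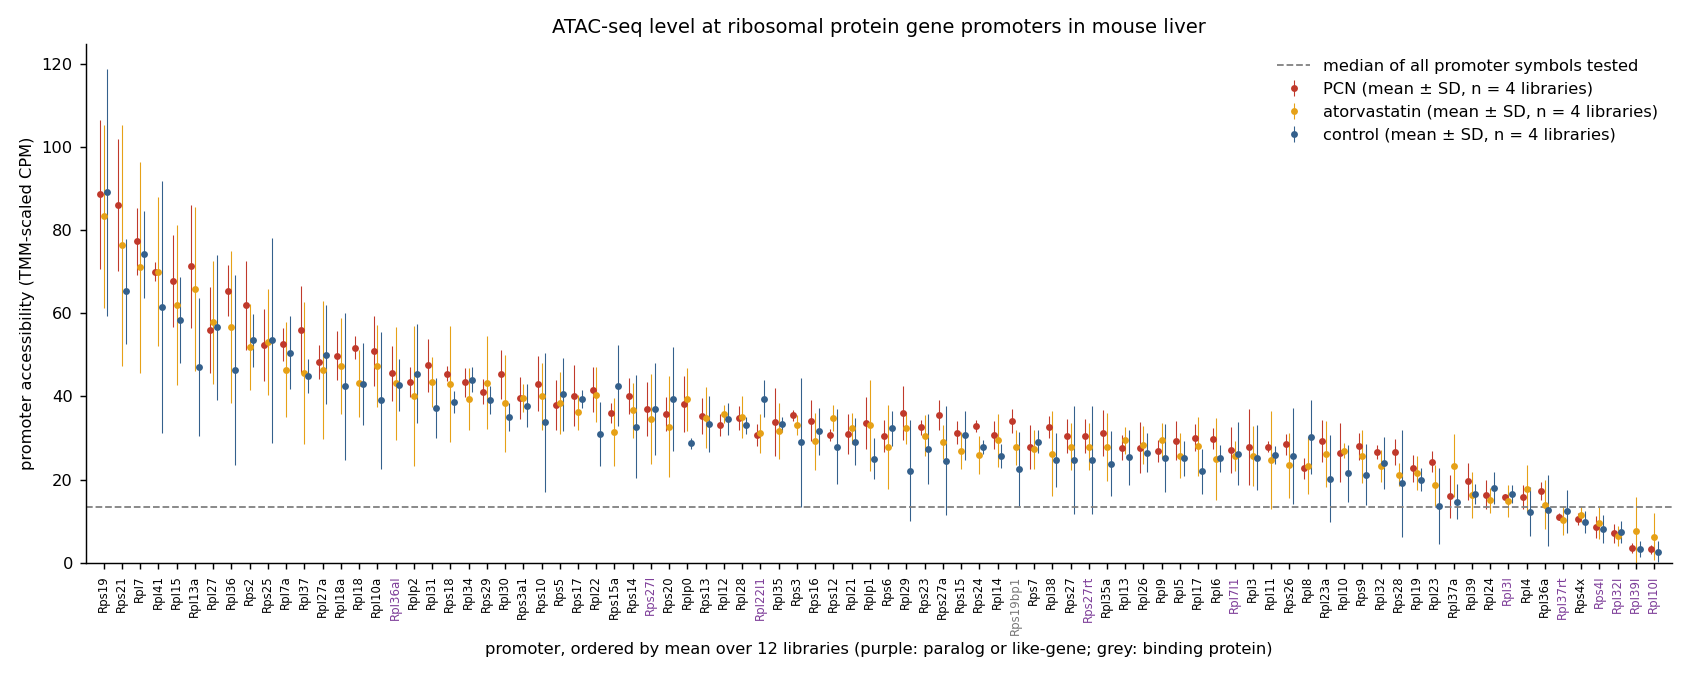
Promoter level in TMM-scaled CPM (vertical axis) of 86 of the 88 promoters, ordered by their mean over 12 libraries. Points are group means and lines the SD of 4 libraries (PCN red, atorvastatin yellow, control blue), and the dashed line is the median of all symbols tested, 13.4 CPM. From Rps19 at 87.0 CPM the levels descend to Rpl10l at 4.05 CPM, with paralogs (purple names) at the low end but also among the middle ranks.

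The 11 paralogs and like-genes had a median of 15.7 CPM and spread from closed to fully open, with 6 of 11 above the median of all symbols. Rpl36al, the autosomal copy of X-linked Rpl36a, was the most open at 43.8 CPM and lay above Rpl36a (14.6 CPM) in 12 of 12 libraries. The start of Rpl36al lies 91 bases from that of Mgat2 on the other strand, so its reads cannot be credited to it alone. Rps27l, a paralog that p53 induces, had 36.2 CPM, against 27.7 CPM at Rps27, and was the higher of the pair in 9 of 12 libraries. Rpl22l1, the paralog of Rpl22, had 33.8 CPM, against 37.7 CPM at Rpl22, which was higher in 8 of 12. These 3 paralogs lay above the median member, at 30.4 CPM.

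Rpl7l1, which acts in ribosome assembly, had 26.3 CPM, against 74.2 CPM at Rpl7, and Rpl3l, the striated muscle paralog of Rpl3, had 15.7 CPM, against 26.3 CPM at Rpl3. In both pairs the core gene was higher in 12 of 12 libraries. At the low end, Rpl10l, a testis gene that stands in for X-linked Rpl10 in male germ cells, had 4.05 CPM, against 25.0 CPM at Rpl10. Rpl39l, the testis-enriched paralog of X-linked Rpl39, had 4.81 CPM, against 17.5 CPM at Rpl39. Both are near the olfactory median of 2.88 CPM. Rpl32l had 6.98 CPM, Rps4l, which RefSeq lists as a transcribed pseudogene, 8.75 CPM, and Rpl37rt 11.2 CPM.

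The low level of the testis paralogs held in every library except atorvastatin 3. Rpl39l had 5.47, 2.74, 3.14 and 2.90 CPM in PCN libraries, 7.96, 2.02, 19.0 and 1.55 CPM in atorvastatin libraries, and 5.10, 4.66, 1.99 and 1.26 CPM in control libraries. Rpl10l had 4.33, 3.37, 1.80 and 3.52 CPM in PCN libraries, 5.75, 2.17, 14.4 and 2.61 CPM in atorvastatin libraries, and 5.44, 3.88, 0 and 1.26 CPM in control libraries. The highest value of both genes in each group came from PCN 1, atorvastatin 3 and control 1. PCN 1 and atorvastatin 3 also had the lowest ratio of core to olfactory promoters in their groups, and control 1 a low one, whereas control 3, with the lowest ratio of the controls, had low values. The part of this background in the paralogs' levels was not tested. The values listed for Rps27rt equal those of Rps27 in all 12 libraries, although the annotation places these genes on chromosomes 9 and 3, so that the members hold 87 distinct measurements and nothing is said of Rps27rt itself.

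The 4 X-linked core genes, Rps4x, Rpl10, Rpl36a and Rpl39, lay at the low end of the core set. Their median was 16.0 CPM, against 32.7 CPM in the 72 autosomal core genes, and only 8 of these lay below the highest X-linked member, Rpl10 at 25.0 CPM. The X-linked median was below the autosomal one in 12 of 12 libraries. Rps4x, which encodes a small-subunit protein, was the least open core gene, with 10.9, 9.69, 12.2 and 8.90 CPM in PCN libraries, 14.2, 11.1, 10.7 and 10.3 CPM in atorvastatin libraries, and 13.3, 10.6, 7.18 and 8.17 CPM in control libraries. Male cells hold a single X chromosome, and X-linked symbols as a whole had a median of 3.93 CPM (922 symbols), against 14.2 CPM for 23280 autosomal symbols. What part the single copy has in the level of these 4 genes was not tested. The lowest autosomal core gene was Rpl4 at 15.3 CPM.

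Within groups the members varied about as much as other promoters of like level. The residual SD on the log2 scale, after removing group means, had a median of 0.357 over the members, 0.524 over all tested promoters, and 0.323 over the 3942 other symbols whose level lay in the members' interquartile range. Without control 3 and atorvastatin 3 the medians were 0.251, 0.367 and 0.233 in the same order. The 44 members inside that interquartile range had a median of 0.317 over all 12 libraries. Among members at or above the median level, Rpl12, a protein at the base of the stalk, was steadiest with an SD of 0.124, followed by Rpl28 (0.151) and Rps3a1 (0.171), which belong to the large and the small subunit. Rpl12 had 29.9 to 36.1 CPM in PCN libraries, 34.1 to 38.8 CPM in atorvastatin libraries and 29.5 to 38.3 CPM in control libraries. The start of Rpl12 lies 71 bases from that of Lrsam1 on the other strand, so its reads cannot be credited to it alone.

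The largest SDs at that level rested on control 3. Rps3, a small-subunit protein also known from DNA repair, had 34.4, 34.7, 37.5 and 35.2 CPM in PCN libraries, 33.0, 36.3, 30.5 and 32.4 CPM in atorvastatin libraries, and 33.5, 32.9, 6.78 and 42.7 CPM in control libraries. Its SD of 0.694 fell to 0.126 without the libraries that stood apart. Rpl36 (0.654) and Rps10 (0.533) had 14.0 and 13.2 CPM in control 3, and SDs of 0.277 and 0.286 without both libraries. Over the whole set the largest SDs were those of Rps28 (1.90), Rpl36a (1.80) and Rpl23 (1.78), the core genes at 0 counts in control 3; without both libraries these were 0.145, 0.133 and 0.271.

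PCN against control was the first comparison, which asks how activation of the pregnane X receptor alters liver chromatin. No ribosomal protein promoter passed an adjusted p of 0.05 in edgeR's quasi-likelihood test, and neither did any of the 41908 promoters tested (0% called). The smallest adjusted p among the members was 0.918. At an unadjusted p under 0.05 stood 2 of 88 members, Rps19bp1 and Rpl29, against a background of 3.75% of promoters; DESeq2 also called 0 members (0% of promoters), with 2 at an unadjusted p under 0.05 (background 5.00%). Without control 3 and atorvastatin 3, edgeR called 0 members (0.0143% of promoters), with 5 at an unadjusted p under 0.05 (background 4.51%): Rps19bp1, Rpl29, Rplp0, Rpl22 and Rpl23. The median log2 fold change of the members was 0.16, and 72 of 88 lay above 0, against 51.0% of all promoters tested. Other promoters with levels in the members' interquartile range had a median of 0.15, so the members' shift was near that of those promoters. All 88 members, also those outside that range, are set beside them here and below.

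By role, 24 of 30 small-subunit genes lay above 0 (median log2 fold change 0.14), and so did 38 of 43 large-subunit genes (median 0.23). The shift was smaller without control 3 and atorvastatin 3, with a median of 0.10 and 67 of 88 above 0, and like-level promoters then stood at 0.13. With these libraries left out and level-dependent trends removed by loess offsets, the median was -0.01 and 42 of 88 lay above 0. With library totals in place of TMM, 48 of 88 lay above 0, and the median of all promoters moved to -0.10. The share of all promoter counts that fell in the 88 promoters was 0.305 ± 0.0120% in PCN livers, 0.294 ± 0.0236% in atorvastatin livers and 0.290 ± 0.0239% in control livers (SD, n = 4 each), or 0.303% in atorvastatin and 0.302% in control livers without the libraries that stood apart. The SDs within the atorvastatin and control groups were larger than the differences between means, and that within the PCN group was smaller than its difference from control.

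Only 7 members had all 4 PCN libraries above all 4 control libraries (7.95%, against 2.07% of all promoters and 5.12% of promoters of like level). Among them were Rps18, Rplp0, Rps24, Rpl17, Rpl23 and Rps19bp1, found as a group after their values were seen. Rpl22l1 alone had all 4 PCN libraries below all controls (1.14%, against 1.52% of all promoters and 0.304% of promoters of like level). Without control 3 and atorvastatin 3 these counts were 8 higher, with Rpl6 added, and 1 lower, against backgrounds of 3.23% and 3.28%. The share among promoters of like level was not computed without these libraries.

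Rplp0, the protein that anchors the P-stalk to the large subunit (chr5:115559467-115563729), had 35.8, 39.2, 46.9 and 31.0 CPM in PCN libraries and 26.9, 28.6, 29.1 and 30.2 CPM in control libraries. The lowest PCN value lay just above the highest control. The log2 fold change was 0.42 ± 0.21 (SE; adjusted p = 0.918, edgeR). Rplp1, its partner in the stalk, had 33.6 ± 6.28 CPM in PCN and 25.0 ± 4.89 CPM in control livers, with overlap. Rplp2, the third stalk protein, had 43.4 ± 3.53 and 45.5 ± 11.9 CPM (SD, n = 4 each), also with overlap. The log2 fold change of Rplp2 was -0.04 ± 0.27 (SE, edgeR), with a 95% interval from -0.60 to 0.51, so its direction could not be told.

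Rps19bp1, the Rps19-binding protein, had 32.1, 38.3, 32.1 and 33.9 CPM in PCN libraries and 25.0, 25.5, 9.57 and 30.2 CPM in control libraries. Every PCN library was above every control, and the lowest control was control 3. The log2 fold change was 0.59 ± 0.25 (SE; adjusted p = 0.918, edgeR), and 0.36 without control 3. Rpl29, a basic large-subunit protein, had 33.9, 42.7, 39.5 and 27.9 CPM in PCN libraries and 27.9, 25.6, 4.39 and 30.8 CPM in control libraries. Its log2 fold change was 0.69 ± 0.31 (SE; adjusted p = 0.918, edgeR), with control 3 far below the other controls and PCN 4 among them. Leaving out single libraries moved its log2 fold change between 0.37, without control 3, and 0.84.

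Rps24, a small-subunit protein, had a narrow spread: 33.5, 31.0, 32.5 and 34.6 CPM in PCN libraries, 23.2, 32.2, 22.0 and 26.5 CPM in atorvastatin libraries, and 26.9, 26.4, 30.3 and 27.7 CPM in control libraries. PCN libraries lay above all controls and above all atorvastatin libraries but 1. The log2 fold change of PCN was 0.25 ± 0.20 against control and 0.33 ± 0.19 against atorvastatin (SE; adjusted p of 0.918 and 1.00, edgeR).

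In mice, Rpl22 is known to hold the expression of its paralog Rpl22l1 down. The promoters of these genes lay in opposite directions here, and a link between them was not tested. Rpl22l1 had 29.0, 34.1, 31.6 and 28.3 CPM in PCN libraries, 31.0, 31.8, 25.1 and 36.5 CPM in atorvastatin libraries, and 36.3, 36.2, 45.9 and 39.6 CPM in control libraries. Every PCN library was below every control, and only atorvastatin 4 reached the controls. Its log2 fold changes were -0.35 ± 0.20 for PCN and -0.34 ± 0.20 for atorvastatin (SE; adjusted p of 0.918 and 1.00, edgeR), and -0.26 and -0.16 in the same order without the libraries that stood apart. Rpl22, looked up as the partner of Rpl22l1, had 42.4, 44.2, 46.0 and 33.9 CPM in PCN libraries, 42.0, 49.0, 34.4 and 36.2 CPM in atorvastatin libraries, and 37.7, 29.3, 36.3 and 20.7 CPM in control libraries. The log2 fold changes of Rpl22 were 0.40 ± 0.22 for PCN and 0.36 ± 0.22 for atorvastatin (SE; adjusted p of 0.918 and 1.00, edgeR), with overlap between groups in both. Both comparisons use the same controls, and none of these values passed the test.

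The other members with the smallest p on the lower side were Rpl8 and Rps15a, of the large and the small subunit. Rpl8 had 22.7 ± 2.54 CPM in PCN, 23.3 ± 6.83 CPM in atorvastatin and 30.3 ± 8.96 CPM in control livers, and Rps15a had 36.1 ± 2.44, 31.5 ± 8.22 and 42.6 ± 9.80 CPM in the same order (SD, n = 4 each). Groups overlapped for both.

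**Figure D4:**
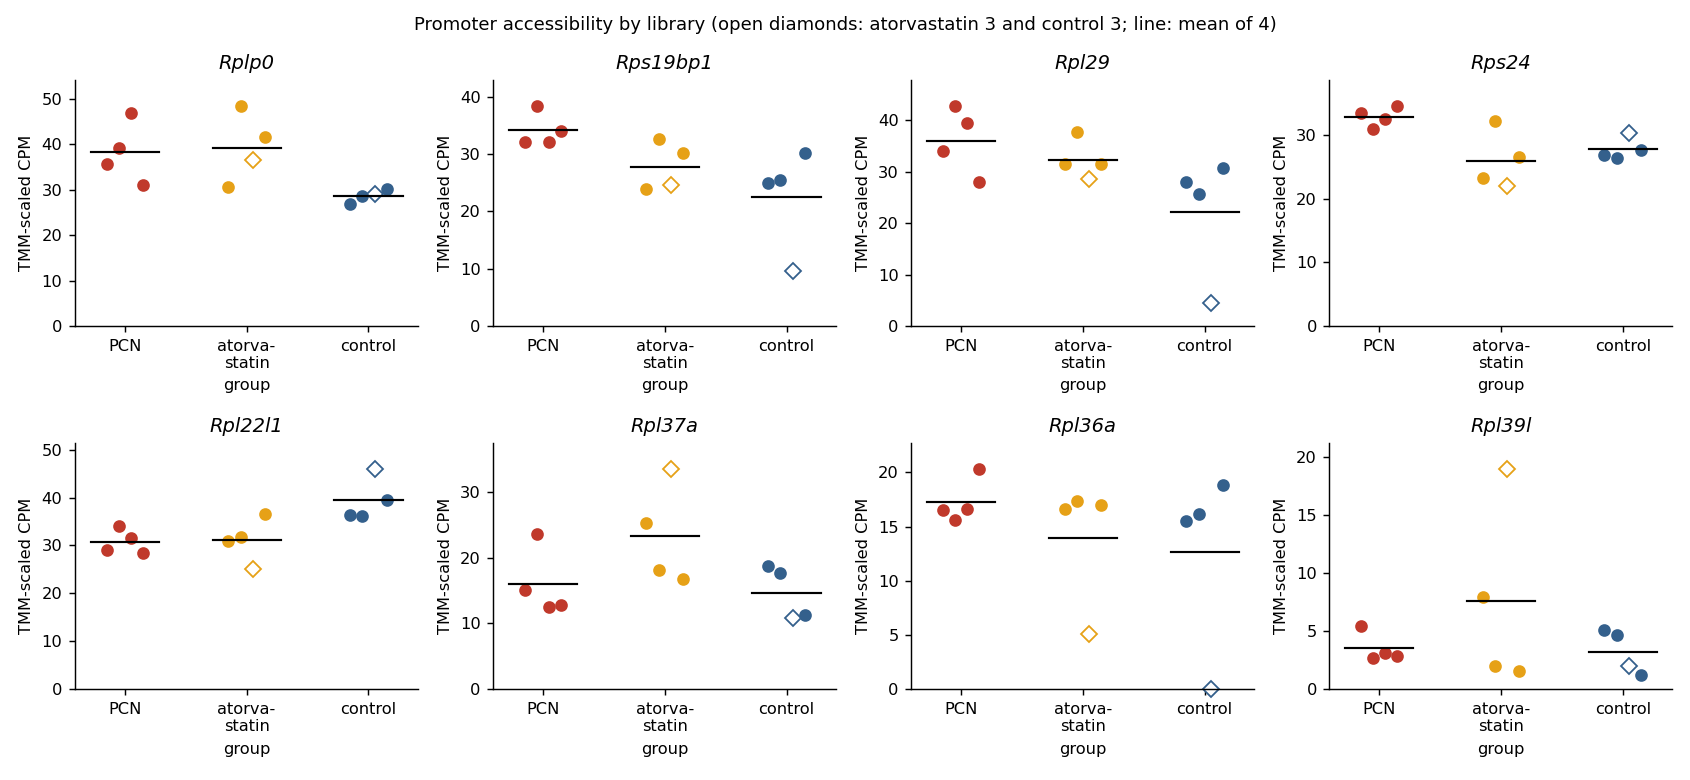
TMM-scaled CPM in each library (points) and group means (lines) for 8 promoters, with PCN left, atorvastatin in the middle and control right; open diamonds are the libraries atorvastatin 3 and control 3. All PCN points of Rplp0, Rps19bp1 and Rps24 lie above all control points, those of Rpl22l1 below, and the diamonds set the means of Rpl29, Rpl37a, Rpl36a and Rpl39l.

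Atorvastatin against control asks what the statin does to liver chromatin. Again 0 of 88 members and 0% of all promoters passed the adjusted threshold; the smallest adjusted p was 1.00, edgeR put 2 members at an unadjusted p under 0.05, Rplp0 and Rpl37a (background 1.93%). DESeq2 called 0 members (0.00239% of promoters), with 1 at an unadjusted p under 0.05 (background 2.41%). Without control 3 and atorvastatin 3, edgeR called 0 members (0.00954% of promoters), with 3 at an unadjusted p under 0.05 (background 3.81%): Rplp0, Rplp1 and Rpl22. The members' median log2 fold change was 0.09, and 58 of 88 lay above 0, against 57.3% of all promoters. Like-level promoters had a median of 0.08. With both libraries left out, the median was 0.08 and 63 of 88 lay above 0, while like-level promoters stood at 0.15. With loess offsets as well, the median was -0.03 and 40 of 88 lay above 0.

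Rplp0 was the only member with all 4 atorvastatin libraries above all controls (1.14%, against 0.535% of all promoters and 1.40% of promoters of like level), with 30.5, 48.4, 36.6 and 41.6 CPM in atorvastatin libraries beside the control values given above. Its log2 fold change was 0.47 ± 0.21 (SE; adjusted p = 1.00, edgeR), and leaving out single libraries moved it between 0.34 and 0.56. No member had all atorvastatin libraries below all controls (background 0.441%). Without atorvastatin 3 and control 3, 6 members were above all controls, Rpl15, Rpl30, Rplp0, Rpl29, Rpl17 and Rpl19, against a background of 3.80%, and none below (background 4.00%). Rpl37a, a zinc-binding protein of the large subunit, had 25.2, 18.1, 33.4 and 16.7 CPM in atorvastatin libraries and 18.8, 17.7, 10.8 and 11.3 CPM in control libraries. The groups overlapped, and the highest atorvastatin value was atorvastatin 3. The log2 fold change was 0.62 ± 0.28 (SE; adjusted p = 1.00, edgeR), and 0.38 without atorvastatin 3.

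PCN against atorvastatin sets the treatments side by side. No member passed (0% of all promoters did), none stood at an unadjusted p under 0.05 in edgeR (background 0.730%) or DESeq2 (background 1.34%), and none had groups without overlap, against 0.291% of all promoters higher and 0.212% lower. Without control 3 and atorvastatin 3 none did either, where the backgrounds were 0.826% higher and 0.623% lower, and none stood at an unadjusted p under 0.05 (background 0.410%). The median log2 fold change of the members was 0.11, with 65 of 88 above 0, against 47.9% of all promoters; like-level promoters had a median of 0.08. Without atorvastatin 3, 43 of 88 lay above 0, and without both libraries 44 of 88 did, with a median of 0.00 to the second decimal. Rpl37a had the smallest p on the lower side, with 15.0, 23.6, 12.6 and 12.8 CPM in PCN libraries, of which PCN 1, PCN 3 and PCN 4 lay below every atorvastatin library and PCN 2 did not (log2 fold change -0.55 ± 0.28, SE; adjusted p = 1.00, edgeR; -0.31 without atorvastatin 3). Rpl38, a large-subunit protein known for its part in translating Hox mRNAs in the mouse embryo, had 32.7 ± 2.67 CPM in PCN and 26.2 ± 10.3 CPM in atorvastatin livers (SD, n = 4 each), where atorvastatin 3 alone was at 11.6 CPM.

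**Figure D5:**
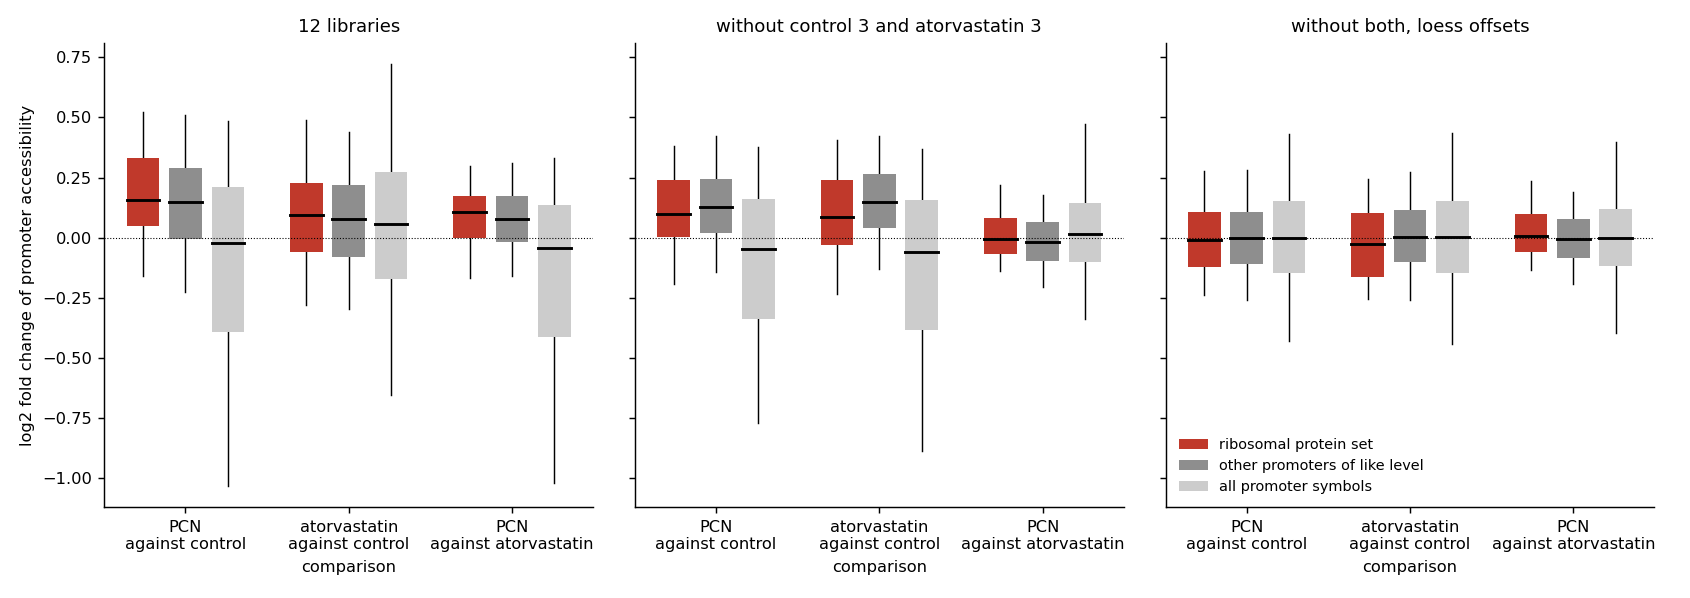
Log2 fold change of promoter level (vertical axis) in the 3 comparisons for the ribosomal protein set (red), 3942 other promoters of like level (dark grey) and all promoter symbols (light grey): boxes span the quartiles, thick lines are medians and thin lines run from the 5th to the 95th percentile. With 12 libraries the red median of PCN against control is 0.16 beside 0.15 in dark grey, and with loess offsets and without control 3 and atorvastatin 3 it is -0.01.

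A p above the threshold does not show that a promoter kept its level. For PCN against control the 95% interval of Rps24, one of the steadier members, ran from -0.16 to 0.65 on the log2 scale, and that of Rplp0 from -0.01 to 0.86, by the t distribution that goes with edgeR's test. Changes of this size could not be told from the spread among 4 libraries.

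Lists of other genes of protein synthesis, and of the proteasome, which degrades proteins, likewise had 0 calls in each comparison. In PCN against control, 28 of 37 initiation factor promoters lay above 0 (median log2 fold change 0.18), 39 of 53 ribosome biogenesis promoters (0.14), 6 of 8 elongation factor promoters (0.04), 54 of 78 mitochondrial ribosomal protein promoters (0.12) and 28 of 40 proteasome promoters (0.13). In atorvastatin against control, the medians of these lists were 0.08, 0.05, 0.03, 0.03 and 0.03 in the same order. Olfactory promoters lay on the other side in PCN against control, with 235 of 1108 above 0 and a median of -0.43, and 16 of 19 hepatocyte marker promoters lay above 0 with a median of 0.38. Summed over the 19 hepatocyte markers, the level was 742 to 995 CPM in PCN libraries, 634 to 972 CPM in atorvastatin libraries and 501 to 919 CPM in control libraries. The marker promoters of the 7 other cell types had medians between -0.39 and -0.17. In atorvastatin against control, 550 of 1108 olfactory promoters lay above 0, with a median of -0.004. How far these lists and the members shifted with the contrast of open to closed promoters, given above per library, was not tested.

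The enhancer table held 158 regions within 5000 bases of 46 member genes, 90 of them at 22 genes with enough counts to test; none was called in edgeR's test, as in the table as a whole (0% of 182115). At an unadjusted p under 0.05 stood 11 in PCN against control and 12 in atorvastatin against control, against backgrounds of 1.93% and 2.39%, and 0 in PCN against atorvastatin (0.465%). Without control 3 and atorvastatin 3, 96 regions at 25 genes were tested and none was called (0% of 192874), and the counts were 16 and 25, against backgrounds of 7.72% and 5.52%, and 0 (1.93%). Many of these regions overlap and are not independent: 7 in each comparison with control, over all 12 libraries, lay at a single place near Rps28. Of all 90 regions, 50 had a log2 fold change above 0 in PCN against control (median 0.15, all enhancers 0.17). In atorvastatin against control 44 did (median -0.03, all enhancers 0.12). Without both libraries these were 45 and 36 of 96, with medians of -0.07 and -0.15, against 0.02 and 0.01 over all enhancers. The region chr17:33828935-33829117 lies within the gene Ndufa7, which starts 10 bases from Rps28. It had 11.7, 12.8, 8.96 and 13.6 CPM in PCN libraries, 9.73, 14.9, 7.42 and 16.2 CPM in atorvastatin libraries, and 5.07, 7.78, 3.59 and 6.76 CPM in control libraries, by library totals. All PCN libraries lay above all controls, and atorvastatin 3 overlapped with them. The log2 fold changes were 1.05 ± 0.38 for PCN and 1.23 ± 0.38 for atorvastatin (SE; adjusted p of 1.00 for both, edgeR). The promoter of Rps28 itself had 26.6 ± 3.08 CPM in PCN, 21.2 ± 2.82 CPM in atorvastatin and 19.1 ± 12.8 CPM in control livers (SD, n = 4 each), with control 3 at 0 counts.

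Near Rpl37rt, the region chr5:115100615-115100797 had 7.66, 10.2, 9.70 and 18.9 CPM in PCN libraries, 7.67, 10.1, 11.4 and 10.2 CPM in atorvastatin libraries, and 5.89, 4.98, 2.61 and 9.15 CPM in control libraries. The groups overlapped through control 4. The log2 fold changes were 1.06 ± 0.46 for PCN and 1.06 ± 0.46 for atorvastatin (SE; adjusted p of 1.00 for both, edgeR), and 0.83 and 0.55 in the same order without control 3 and atorvastatin 3. Both treatments were set against the same controls, so these values are not separate evidence.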

How the data were processed

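The authors deposited promoter and enhancer tables of expected counts, whole or in steps of 0.5, a unit read from the values and rounded to whole numbers before fitting. Per the submitters' processing notes, the tools include HOMER 4.10, bedtools 2.30.0, STAR 2.7.9a and Trimmomatic, with the build mm10; counting and the rule for a promoter or enhancer are not given in the sources used here. Groups followed the labels; a pravastatin group is not analysed here. All 12 libraries entered a single edgeR 4.0.16 fit in R 4.3.3 (TMM, filterByExpr with a minimum count of 10 and total of 15, quasi-likelihood test) with group as the only factor and Benjamini-Hochberg adjustment over all 41908 promoters or 182115 enhancers. SEs are approximate, from the fold change and the F value. A prior count of 2 was added before taking log2 CPM. The fit was tested on simulated data. Named members were the 8 highest and 8 lowest, the stalk, the paralogs, the 3 of smallest p per direction and comparison, and the 3 highest and lowest residual SDs at or above the median level. The members, lists and tests were chosen with earlier results of these data known. Alternatives were other scalings, filters, DESeq2 1.42.0, limma-voom (limma 3.58.1), fits of only the groups compared, a replicate block, and leaving out libraries; non-overlap without control 3 and atorvastatin 3 was added after seeing the data. Some genes are not reported here.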

Additional observations from a re-analysis of the deposited data

Results flagged for a closer look

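Of 123 sets of 4 libraries examined for a library far from the other 3, 4 were marked, where about 1 in 20, or 6.15, would be marked by chance. Rpl36a, the X-linked large-subunit gene, had 5.08 CPM in atorvastatin 3, against 16.6 to 17.3 CPM in the other atorvastatin libraries. Rpl39l, the testis-enriched paralog, had 5.47 CPM in PCN 1, against 2.74 to 3.14 CPM in the other PCN libraries. PCN 1 also had the lowest ratio of core to olfactory promoters of its group, 9.83 against 18.4 to 19.7, and the highest share of counts in olfactory promoters, 0.427% against 0.207 to 0.231%.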

How the results depend on the processing

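In all 3 comparisons 0 members were called under every setting run. The members above 0 in PCN against control were 72 of 88; they were 48 with library totals and 42 with loess offsets without control 3 and atorvastatin 3, where the median log2 fold change was -0.0089; the cause was not tested. Leaving out each library in turn, 64 to 73 lay above 0 with medians of 0.10 to 0.22 in PCN against control, 48 to 74 with 0.02 to 0.18 in atorvastatin against control, and 43 to 73 with -0.00 to 0.18 in PCN against atorvastatin, the lowest count without atorvastatin 3. Rpl39l in PCN against atorvastatin (-1.08 ± 0.71, SE) turned to 0.094 with limma-voom, and without both libraries to 0.0060, or 0.10 with loess offsets and 0.19 with a replicate block. Rpl10l (-0.94 ± 0.76, SE) turned to 0.19 with both libraries left out and a replicate block. Members above all controls with atorvastatin numbered 1, and 6 without both libraries, a comparison of 3 with 3. Not every same-numbered pair of libraries deviated together, so the numbers were not taken as pairs: correlations were 0.36 to 0.50 for number 1, 0.23 to 0.43 for number 4 and -0.42 to 0.10 for numbers 2 and 3. With the replicate block 73, 56 and 68 members lay above 0 in the 3 comparisons and none was called; without both libraries the block called 124 and 57 promoters against control, and 0 members, where the fit without it called 6 and 4. Depth limits control 4 most, with a median of 53.3 counts per member promoter, against 493.5 in atorvastatin 2.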
